A study of Mus musculus with 2 samples.

Results

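The 10 genes examined here, in RNA-seq of mouse ear skin, belong to the guanylate-binding protein (GBP) and immunity-related GTPase (IRG) families: Gbp2, Gbp3, Gbp4, Gbp5, Gbp6, Gbp7, Igtp, Irgm1, Irgm2 and Iigp1. They were listed by symbol and matched through GENCODE M21, and all 10 were found among the 34745 genes of the deposited count table. The study holds 2 libraries of ear skin. One is labelled WT and the other KAT8-cKO, a conditional knockout of KAT8, an acetyltransferase that modifies histone H4. Both carry the label of imiquimod-induced psoriasis, and per the labels' protocols each ear was given 30 mg of 5% imiquimod cream on each of 3 days before collection on day 4. Imiquimod activates the RNA-sensing receptor TLR7, so both specimens had received an agent that induces interferon. The sources used here do not give the cell type in which the knockout was driven, the promoter used, or the strain, age and number of animals in each library.

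GBPs and IRGs are GTPases that cells make in quantity after interferon gamma, and to a lesser degree after type I interferons. They gather on the membranes around intracellular bacteria and parasites, and GBPs also expose bacterial lipopolysaccharide to the inflammasome that runs through caspase-11. The IRGM proteins Irgm1, Irgm2 and Igtp (also called Irgm3) hold the effector IRGs such as Iigp1 (Irga6) inactive on the cell's own membranes. Interferons raise transcription of these genes through short promoter sequences, the gamma-activated site (GAS) and the interferon-stimulated response element (ISRE).

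Short stretches before the gene starts are shown here because every member with a promoter entry holds the ISRE core there. RefSeq promoters (GRCm38.p6) were matched by symbol for 7 of the 10 members. The missing ones are Gbp4, Gbp6 and Iigp1. Each stretch of 30 bases reads 5′ to 3′ on the gene's own strand, and capitals mark the ISRE core (GAAA, any 2 bases, GAAA; or TTTC, any 2 bases, TTTC on the other strand) and the GAS (TTCNNNGAA, which reads the same on both strands). In Gbp3 and Irgm1 a pair of ISRE matches overlap.
Gbp2 (chr3:142620593-142620622, plus strand): aactcttttagTTTCACTTTCactgtctta
Gbp3 (chr3:142559994-142560023, plus strand): cacagTTTCAGTTTCTATTTCccagatccc
Gbp5 (chr3:142496758-142496787, plus strand): aacttgtgtagTTTCAATTTCagtttagag
Gbp7 (chr3:142530272-142530301, plus strand): tgtgtgtgcagTTTCAGTTTCagttctcca
Irgm1 (chr11:48871426-48871455, minus strand): ttcaaGAAATAGAAACCGAAActgattctc
Igtp (chr11:58199511-58199540, plus strand): TTCTAGGAActGAAACTGAAAgctgttcgg
Irgm2 (chr11:58214902-58214931, plus strand): TTCCAGGAActGAAACTGAAAgctgttcgg
Tgtp1 (chr11:48992305-48992334, minus strand): TTCCAGGAAtcGAAACTGAAAcctacctga
Tgtp2 (chr11:49064264-49064293, minus strand): TTCCAGGAAtcGAAACCGAAAcctactctg

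In the 250 bases before the RefSeq start, the ISRE core was found in 7 of 7 members. Of other GBP and IRG family genes with an entry, 5 of 10 had it. Over all 27025 genes with a promoter in the table the share was 3.46%. A gene was counted where any of its promoters held the match. The 7 members had 8 promoters, and a promoter without the ISRE core is among them and is not shown. The GAS was found in 4 of 7 members (Gbp5, Gbp7, Igtp and Irgm2), against 3 of 10 such relatives and 8.13% of all genes. The ISRE matches of the 4 Gbp genes were in the TTTC orientation and those of the 3 IRG genes in the GAAA orientation. In Igtp and Irgm2 the GAS ended 2 bases before the ISRE core, and the same spacing was present in Tgtp1 and Tgtp2, which encode the effector Irgb6 and are not members. Only 5 genes in the whole promoter table had a GAS ending 2 bases before an ISRE core. The reverse order, with the ISRE core first, was not counted. Aligned at the ISRE core, Igtp and Irgm2 were identical at 59 of the 61 bases that end with it. GENCODE places some starts farther upstream than RefSeq, so that 21 of the 30 bases shown for Gbp2 and all 30 shown for Irgm1 lie in a GENCODE exon.

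Gbp7, the member with the lowest ratio between the libraries, held a pair of GAS matches followed by an ISRE core. Gbp5, 2.0-fold lower, also had a pair of GAS matches and an ISRE core over all its promoters. The full stretch of 250 bases of Gbp7 shows the order of its matches (chr3:142530086-142530335, plus strand).
Gbp7: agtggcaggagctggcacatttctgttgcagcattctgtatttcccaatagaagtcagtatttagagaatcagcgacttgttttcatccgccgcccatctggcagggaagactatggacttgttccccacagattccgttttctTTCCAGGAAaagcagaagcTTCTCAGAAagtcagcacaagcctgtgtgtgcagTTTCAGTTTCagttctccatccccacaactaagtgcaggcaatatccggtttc

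**Figure D1:**
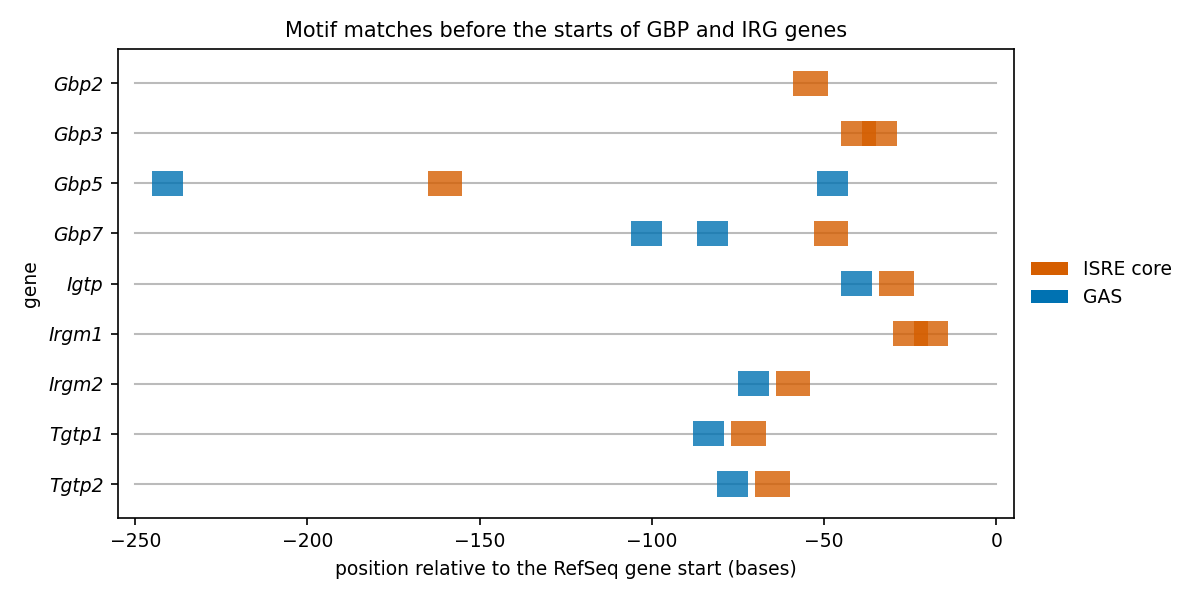
Positions of ISRE core and GAS matches in the 250 bases before the RefSeq start of the 7 members with a promoter entry and of Tgtp1 and Tgtp2. The x axis is the distance from the start in bases. Matches from all promoters of a gene are drawn on its line. Darker parts are overlapping matches. Gbp7 carries both GAS matches upstream of its ISRE core, and the GAS and ISRE of Igtp, Irgm2, Tgtp1 and Tgtp2 sit 2 bases apart.

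The libraries held 12179608 counts on genes (labelled WT) and 13727524 (labelled KAT8-cKO). Values below are CPM, the counts of a gene relative to the library total, scaled by TMM (a trimmed mean that sets typical genes equal between libraries), with exact 95% intervals that cover counting error only. With 1 library for each genotype there are no replicates and no test was run, so differences describe these specimens and not the genotypes. Kat8 itself had 219 counts under the WT label and 351 under the KAT8-cKO label, or 19.0 and 24.2 CPM (ratio 1.27, interval 1.07 to 1.51), and so was not lower. That value covers the whole gene in all cells of the skin and does not settle the label, so libraries are named by their labels. Xist had 11891 and 6 counts and the Y-linked gene Eif2s3y 0 and 838. Transcripts that mark sex thus differ along with the label. For every gene, the members included, sex and genotype cannot be told apart here. All 10 keratinocyte markers listed for skin were detected in both libraries.

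Under the KAT8-cKO label all 10 members were lower, from 9.42-fold for Gbp7 to 1.3-fold for Gbp4 (pairs of values give WT first throughout). Their counts summed to 2605 and 1132, or 226 and 78.0 CPM, a level 2.90-fold lower (interval 2.70 to 3.11). On the log2 scale with 1 CPM added to each value, which understates differences of low genes, their median ratio was -1.15, beside 0.01 over all 15240 genes that reached 1 CPM in one library or both, called measured here. By that measure 5 members were at least 2-fold lower (Gbp7, Gbp2, Gbp6, Iigp1 and Igtp) and none was higher. Over all measured genes 8.63% were at least 2-fold lower, and 49.4% had a ratio below 0. Counts past 2-fold use this measure throughout, while single folds are plain ratios of CPM. By the plain ratio, applied after the data were seen, Gbp3 and Gbp5 also reached 2-fold, giving 7 of 10 members against 11.6% of all measured genes, and no member was 2-fold higher, against 6.89%. In bulk skin, fewer cells that make these transcripts and less transcript per cell cannot be told apart.

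**Figure D2:**
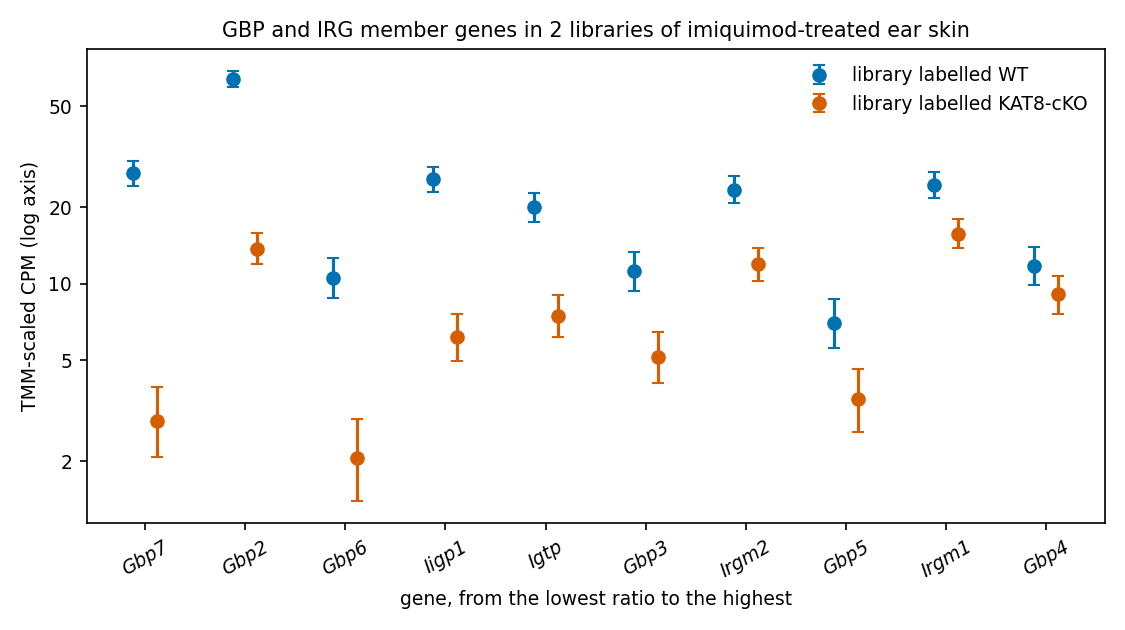
TMM-scaled CPM of the 10 members (log axis) in the libraries labelled WT (blue) and KAT8-cKO (orange). Points are single libraries and bars are exact 95% counting intervals. The intervals of Gbp4 overlap between the libraries, and the widest gap is that of Gbp7, at 27.3 and 2.89 CPM.

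On chromosome 3, Gbp7 and Gbp2 lay far apart between the libraries. Gbp7 (ENSMUSG00000040253, chr3:142530342-142550149, GRCm38), which has been linked to assembly of the phagocyte oxidase, had 314 and 42 counts. That is 27.3 and 2.89 CPM, 9.42-fold lower (interval 6.81 to 13.3). Gbp2 (ENSMUSG00000028270, chr3:142620602-142638008), a prenylated GBP that coats pathogen vacuoles, had 740 and 200 counts, or 64.2 and 13.8 CPM (4.66-fold lower, interval 3.98 to 5.48). It was the most abundant member per length in both libraries.

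The other chromosome 3 members were nearer to each other and to the 2-fold mark. Gbp3 (ENSMUSG00000028268, chr3:142560026-142573209) had 129 and 75 counts, 11.2 and 5.17 CPM. Its plain ratio was 2.17-fold lower (interval 1.62 to 2.92), while its log2 ratio with the added 1 CPM was -0.98, just short of the threshold. Gbp5 (ENSMUSG00000105504, chr3:142493978-142522344), known for promoting NLRP3 inflammasome assembly, had 81 and 51 counts, 7.03 and 3.51 CPM (2.0-fold lower, interval 1.39 to 2.90). Together the 4 chromosome 3 members were 4.33-fold lower (interval 3.85 to 4.87), a sum in which Gbp2 and Gbp7 hold most of the counts.

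The chromosome 5 members differed from each other. Gbp6 (ENSMUSG00000104713, chr5:105270702-105293698) had 122 and 30 counts, 10.6 and 2.07 CPM, and was 5.12-fold lower (interval 3.41 to 7.91). Gbp4 (ENSMUSG00000079363, chr5:105115767-105139586) had 136 and 132 counts, 11.8 and 9.10 CPM, the smallest difference of any member (1.3-fold lower, interval 1.01 to 1.66). The intervals of the ratios of Gbp4 and Gbp6 do not overlap. Without TMM the log2 ratio of Gbp4 was -0.20 in place of -0.34.

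Reads of Gbp6 are hard to assign. Of its transcripts' 50-base words, 70.7% also occur in transcripts of other genes, most of all Gm43302, a gene model that shares 81.6% of its exon bases with Gbp6 and Gbp10. Summed over Gbp6, Gbp10 and Gm43302 the counts were 187 and 47, which is 5.01-fold lower (interval 3.62 to 7.06), close to the value of Gbp6 alone. For the other members the share of such words was between 0.379% (Irgm1) and 11.8% (Igtp, shared with Irgm2). Igtp also shares 8.01% of its exon bases with Irgm2, and Gbp4 shares 0.814% with Gbp8 and Gbp9.

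Among the 4 IRG members, Iigp1 had the lowest ratio. Iigp1 (ENSMUSG00000054072, chr18:60376027-60392634), the effector IRG that disrupts parasite vacuoles, had 298 and 90 counts, 25.9 and 6.20 CPM (4.17-fold lower, interval 3.28 to 5.34). Its interval lay above those of Irgm1 and Irgm2 and overlapped that of Igtp only between 3.28 and 3.38. Igtp (ENSMUSG00000078853, chr11:58199556-58207591) had 231 and 109 counts, 20.1 and 7.51 CPM (2.67-fold lower, interval 2.12 to 3.38).

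The remaining regulators were within 2-fold. Irgm2 (ENSMUSG00000069874, chr11:58199618-58222782) had 271 and 174 counts, 23.5 and 12 CPM (1.96-fold lower, interval 1.62 to 2.39). Irgm1 (ENSMUSG00000046879, chr11:48861968-48871683), which also acts in autophagy and mitochondrial quality control, had 283 and 229 counts, 24.6 and 15.8 CPM (1.56-fold lower, interval 1.3 to 1.86). The 3 chromosome 11 members together were 1.93-fold lower (interval 1.73 to 2.16). This interval does not overlap that of the chromosome 3 Gbp genes.

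Because members differed in how far they were lower, the make-up of the GTPase transcripts differed between the libraries. Gbp2 took 28.4% and 17.7% of all member counts, and Gbp7 took 12.1% and 3.71%. Irgm1 went the other way, with 10.9% and 20.2%, as did Gbp4 with 5.22% and 11.7%. In CPM per kilobase of merged exons, the order in the library labelled WT began with Gbp2 (25.5), Igtp (9.92) and Irgm2 (6.37), whose intervals were apart. Gbp7 (4.85), Iigp1 (4.44), Irgm1 (4.23) and Gbp3 (3.43) followed, each overlapping the next. Gbp6 (1.78) and Gbp4 (1.58) overlapped, and Gbp5 (1.06) was lowest.

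In the library labelled KAT8-cKO the same scale gave 5.48 for Gbp2, 3.71 for Igtp, 3.25 for Irgm2 and 2.72 for Irgm1, with Gbp2 apart from the next and the last 3 overlapping in turn. Gbp3 (1.58), Gbp4 (1.21) and Iigp1 (1.07) overlapped in turn. Gbp5 (0.529), Gbp7 (0.516) and Gbp6 (0.347) were lowest and overlapped in turn. Gbp7 thus had rank 4 of 10 under the WT label and rank 9 under the KAT8-cKO label.

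Relatives of the members that the list did not include were mostly lower too. Of 18 further GBP, IRG and GVIN genes found in the table, 15 were measured. Of these, 8 lay at or past the 2-fold mark on the lower side, against 8.63% of all measured genes. None lay past it on the higher side, against 4.56%, and the median log2 ratio was -1.01. By the plain ratio 11 of the 15 were at least 2-fold lower, against 11.6% of all measured genes. Tgtp1 had 47 and 3 counts, a ratio of 0.0507 (interval 0.0101 to 0.157), and Tgtp2 had 70 and 27, 3.27-fold lower. The pair is nearly identical, and its summed counts of 117 and 30 were 4.91-fold lower (interval 3.27 to 7.60). Ifi47, the effector Irgd, had 141 and 81 counts (2.19-fold lower, interval 1.66 to 2.92).

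Both chromosome 18 relatives of Iigp1 were also lower. Gm4951 had 47 and 6 counts, 9.87-fold lower (interval 4.21 to 28.2), and F830016B08Rik had 34 and 1, a ratio of 0.0233 (interval 0.000574 to 0.139). Gbp10 had 26 and 2 counts, a ratio of 0.0611 (interval 0.00702 to 0.244), with the doubt over assignment given for Gbp6. Among the very large inducible GTPases, Gm1966, annotated as a pseudogene, had 192 and 72 counts (3.36-fold lower, interval 2.55 to 4.47). Gvin1 and Gm4070 share nearly all of their sequence. Summed, they had 49 and 11 counts (5.61-fold lower, interval 2.88 to 12).

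The relatives closest to an equal level were Gbp8 and Gbp9, whose chromosome 5 gene models overlap that of Gbp4, and the divergent gene Irgq. Gbp9 had 144 and 146 counts, 12.5 and 10.1 CPM (ratio 0.805, interval 0.635 to 1.02), and Gbp8 had 17 and 22 (ratio 1.03, interval 0.521 to 2.06). Gbp4, Gbp8 and Gbp9 summed to 297 and 300 counts, 1.25-fold lower (interval 1.06 to 1.47), in contrast to Gbp6 and Gbp10 on the same chromosome. Irgq, an IRG relative with an altered nucleotide-binding site, had 425 and 604 counts, 36.9 and 41.6 CPM (ratio 1.13, interval 0.995 to 1.28). Gm5431, 9930111J21Rik1 and 9930111J21Rik2, members of the chromosome 11 cluster, had log2 ratios of -0.67, -0.33 and -0.95 with the added 1 CPM, short of the threshold. By plain ratio they were 2.31-fold, 1.68-fold and 2.33-fold lower. Gbp2b, Gbp11 and Irgc1 were below 1 CPM in both libraries.

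**Figure D3:**
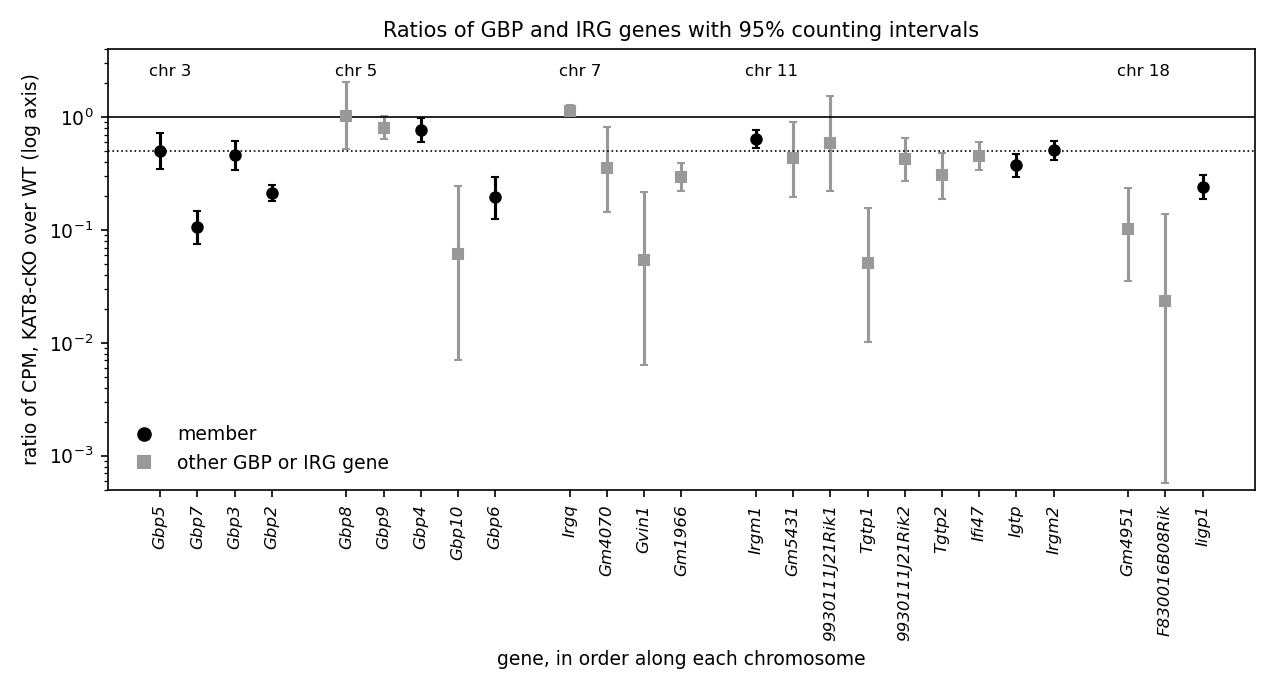
Ratio of CPM, KAT8-cKO over WT (log axis), for the 10 members (black circles) and 15 measured relatives (grey squares) in order along each chromosome. Bars are exact 95% counting intervals, the solid line is equality and the dotted line is 2-fold lower. Gbp8, Gbp9 and Gbp4, whose gene models overlap, lie next to each other near equality, while Gbp10 and Gbp6 farther along chromosome 5 do not.

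The members with both motifs had log2 ratios of -2.86 (Gbp7), -1.31 (Igtp), -0.92 (Irgm2) and -0.83 (Gbp5). Those with the ISRE core and no GAS match had -2.14 (Gbp2), -0.98 (Gbp3) and -0.61 (Irgm1). The ranges overlap. Gbp4, Gbp6 and Iigp1 had no promoter entry and are left out, and a link between the GAS and the ratios was not tested. The nearly identical sites of Igtp and Irgm2 stood before genes that were 2.67-fold and 1.96-fold lower, with overlapping intervals.

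None of 19 interferon ligand genes was measured, and 18 of them, Ifng and Ifnb1 included, had 0 counts in both libraries, which allows up to 0.260 CPM (WT) and 0.207 CPM (KAT8-cKO). The exception was Ifnk, with 0 and 3 counts. The 12 receptor and signalling genes had a median log2 ratio of -0.07, with 6 above 0 and 6 below.

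Stat3 and Jak1, among the most abundant of these, had log2 ratios of 0.38 and -0.26. Ifngr1, which encodes the binding chain of the interferon gamma receptor and was chosen after its values were seen, had 130 and 177 CPM. Among 12 interferon regulatory factors and transactivators 1 was higher and none lower (median -0.04). It was Ciita, named after its values were seen, the activator of MHC class II genes, at 3.30 and 11.6 CPM (ratio 3.53). Irf3, among the most abundant of that list, had a log2 ratio of 0.31. Irf1, chosen afterwards because it binds the ISRE, had 315 and 233 counts, 27.3 and 16.1 CPM (1.70-fold lower, interval 1.43 to 2.03).

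Inhibitors of interferon signalling were within 2-fold in 8 of 8 cases (median -0.02), with log2 ratios of -0.33 for Socs3 and 0.31 for Ptpn11. Of 5 measured genes that raise interferon gamma production in lymphocytes, 3 were lower and none higher (median -1.07). The cytokine gene Il18 had 203 and 75 counts (3.41-fold lower, interval 2.60 to 4.51), Il15 had 90 and 44 (2.58-fold) and Il12a had 26 and 8 (4.09-fold).

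Genes of the interferon gamma response other than the GTPases split in both directions. Of 27 measured, 6 were at least 2-fold lower and 4 higher (4.56% of all measured genes were at least 2-fold higher), with a median log2 ratio of 0.13. The lower ones included Nos2, the inducible nitric oxide synthase, at 512 and 27.8 CPM. Cd274, which encodes the T cell inhibitor PD-L1, was at 110 and 33.1 CPM (3.31-fold lower). Upp1, a uridine phosphorylase, was at 145 and 36.5 CPM (3.96-fold lower).

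The chemokine gene Cxcl9 had 83 and 22 counts (4.75-fold lower, interval 2.94 to 7.99). The other lower genes, named after their values were seen, were Cxcl10 (70 and 22 counts) and Ubd (27 and 1). The 4 higher genes were the class II genes Cd74, H2-Aa, H2-Ab1 and H2-Eb1, also named afterwards, whose summed level was 235 and 644 CPM. The 11 class I presentation genes on the list (proteasome, peptide transporter and class I chains) were all within 2-fold, with a median of 0.29. The GTPases and the class II genes, both known targets of interferon gamma, thus stood on opposite sides of equality in the same specimens. Dendritic and Langerhans cell markers, given below, were also higher in 5 of 8 measured cases. Their part in the class II values was not tested.

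Most type I interferon response genes were within 2-fold. Of 33 measured genes 2 were at least 2-fold lower, none was higher and 24 had ratios below 0, with a median of -0.28. A share of 2 in 33 is no larger than the 8.63% of all measured genes. By the plain ratio 7 of 33 were at least 2-fold lower, against 11.6% of all measured genes. With the added 1 CPM the lower ones were Ifi27l2a, at 183 and 46.2 CPM (3.97-fold), and Trim30a, at 38.7 and 14.3 CPM (2.71-fold). The ISRE core stood in the promoters of 12 of the 25 genes of this list with an entry, and in 2 of 21 of the interferon gamma list.

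**Figure D4:**
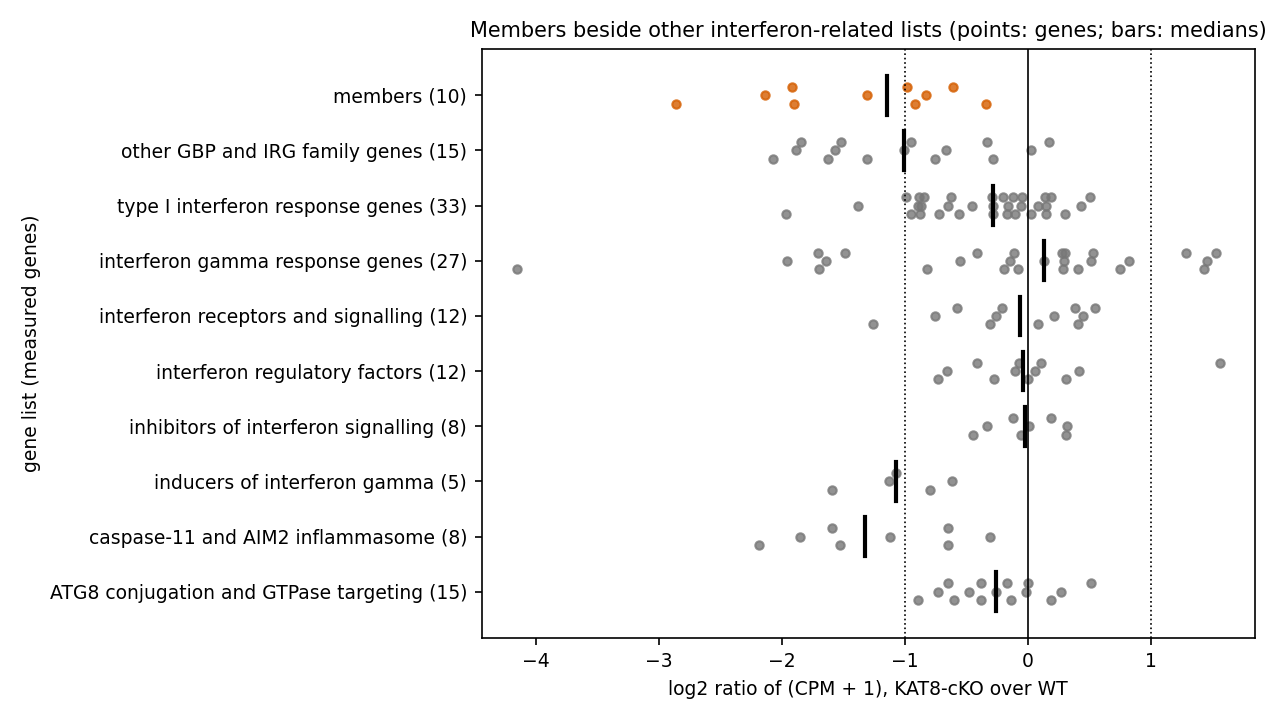
Log2 ratios of (CPM + 1), KAT8-cKO over WT, for measured genes of the members (orange) and of 9 related lists (grey), with the number measured in brackets. Points are genes, thick bars are medians, and dotted lines mark 2-fold. All 10 members lie below 0, while the interferon gamma response genes spread from -4.16 to 1.53.

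Genes that act with the GTPases differed by group. In the list of the caspase-11 and AIM2 inflammasomes, which GBPs feed with bacterial ligands, 5 of 8 genes passed 2-fold, each on the lower side (median -1.33). Il1b had 1238 and 271 CPM, Nlrp3 72 and 19.2, Casp1 24.9 and 7.99, and Il18 17.6 and 5.17. Casp4, which encodes caspase-11 and was named after its values were seen, had 299 and 165 counts (2.28-fold lower, interval 1.88 to 2.78). The ATG8 conjugation machinery that directs the GTPases to vacuoles was within 2-fold in 15 of 15 cases (median -0.26), with log2 ratios of -0.90 for the adaptor gene Sqstm1 and -0.73 for Gabarap. KAT8 complex genes were within 2-fold in 12 of 12 cases (median 0.19), including Hcfc1 at 0.85 and Ogt at -0.63.

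Markers of several cell types differed between the libraries in the same direction as the GTPases or against it, and their part in the result was not tested. Neutrophil markers were at least 2-fold lower in 8 of 10 cases (summed level 15135 and 5487 CPM, median -1.67), and monocyte and macrophage markers in 5 of 12 (2948 and 1344 CPM, median -0.82). S100a8 (5844 and 2230 CPM) and S100a9 (4739 and 2372 CPM), named after their values were seen, held most of the neutrophil sum. Which cells made these transcripts cannot be told in bulk skin. Without S100a8 the sums of the neutrophil list were 9291 and 3257 CPM. The log2 ratios of the neutrophil list ran from -4.21 to -0.86. Endothelial markers were within 2-fold in 10 of 10 cases (390 and 302 CPM, median -0.48). Dendritic and Langerhans cell markers were higher in 5 of 8 measured cases and lower in none (61.6 and 147 CPM, median 1.26), and without Epcam, which epithelial cells also express, the sums were 26.3 and 47.1 CPM. T cell markers were higher in 5 of 10 (118 and 263 CPM, median 0.83), with Thy1 alone at 86.7 and 215 CPM and the sums without it at 31.6 and 48.4 CPM. Natural killer markers were higher in 3 of 5 (6.94 and 17.5 CPM, median 1.14).

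Among structural cells, keratinocyte markers had 1 higher and 2 lower of 10 (32412 and 31814 CPM, median -0.07), and fibroblast markers 1 higher and 2 lower of 8 (3509 and 4473 CPM, median 0.13). Adipocyte markers were lower in 6 of 8 (2824 and 304 CPM, median -3.58) and skeletal muscle markers in 8 of 8 (12897 and 2427 CPM, median -2.72). Sebaceous gland markers were higher in 7 of 8 (1818 and 8692 CPM, median 3.20). B cell markers were within 2-fold in 3 of 3 measured cases (23.5 and 21.3 CPM, median -0.10). Of all these markers, those at 0 counts were 2 of the dendritic list and 1 of the natural killer list, in the library labelled WT.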

How the data were processed

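The authors deposited raw counts per Ensembl gene, 1 column for each of 2 libraries of total RNA from ear skin, with mRNA isolated and fragmented per the labels' protocols. Per the submitters' processing notes, the tools named are HISAT2, StringTie 1.3.0 and edgeR and the build is mm10, with no role stated for each tool. The counting tool, annotation release and strand setting were not given in the sources used here. Antisense and overlapping reads therefore cannot be told apart.

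Counts were scaled by TMM (edgeR 4.0.16, R 4.3.3; factors 0.946 for WT and 1.06 for KAT8-cKO). One count was worth 0.0868 and 0.0689 CPM. A gene was measured at 1 CPM or more in either library and called at a log2 ratio, with a pseudocount of 1 CPM, of 1 or more in size. Folds are plain CPM ratios with exact Clopper-Pearson 95% intervals, and a count of 0 allows 3 counts. Intervals and floors cover counting error only, because PCR copies cannot be recognised without molecular identifiers. With 1 library per group no test was run. The calculations were tested on simulated data.

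Symbols, positions and merged exons came from GENCODE M21 (GRCm38) for 34267 genes, and promoters from RefSeq (GRCm38.p6). Besides the members, 23 lists (288 entries, 2 unmatched) were used. Members and lists were chosen with earlier results of these data known. Named genes were the members, measured relatives, and up to 4 genes per pathway list past 2-fold, or its 2 most abundant where fewer than 2 passed. Cell type lists are given by counts, medians and summed levels. A gene outside this rule is marked in the text as chosen afterwards. Alternatives were plain CPM, median-of-ratios factors, TMM without the 50 most abundant genes, other pseudocounts, filters and thresholds, and leaving out members with shared exons. A planned comparison of the members' proteins was not run because no protein sequences were used here. Some results on single genes of the pathway lists are not reported here.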

Additional observations from a re-analysis of the deposited data

How the results depend on the processing

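All 10 members kept a ratio below 0 under plain CPM, median-of-ratios factors, TMM without the 50 most abundant genes and a pseudocount of 0.1 CPM. Plain CPM raised the median of all genes by 0.15 (log2), changed the split of all genes past 2-fold from 695 higher and 1315 lower to 964 and 1056, and made the summed members 2.59-fold lower. Under it the interval of Gbp4 included equality, so that 9 of 10 intervals lay below 1, and the members' median was -1.0, or -1.16 relative to that of all genes. The number of members at least 2-fold lower was 5 under plain CPM, median-of-ratios factors, no filter, a filter of 5 CPM and, an alternative added after seeing the data, with Gbp6 summed with Gbp10 and Gm43302. It was 7 with no pseudocount, also added after seeing the data, when 1767 of all measured genes were lower and 1050 higher. It was 6 with a pseudocount of 0.1 CPM or without the 50 most abundant genes. Because fewer genes were counted, it was 3 of 6 without members whose exons overlap another gene's, and with the lower threshold of 1.5-fold it was 9, when 2626 of all measured genes were lower and 1966 higher. The members' median lay between -1.44 and -1.0 over these settings. No paired analysis was possible because each group holds 1 library and the result comes from no test. The depth limits the members least abundant in the library labelled KAT8-cKO, Gbp6 (30 counts) and Gbp7 (42), and says nothing of differences between animals.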
